A study of Mus musculus with 8 samples.

Results

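MAP kinase phosphatases of the Dusp family are enzymes that remove phosphate from MAP kinases. The 9 genes followed here, Dusp1, Dusp4, Dusp5, Dusp6, Dusp7, Dusp8, Dusp10, Dusp14 and Dusp16, were taken by name, with earlier results of these data known. Of these, 8 were present in all 3 gene tables of the study, among 9875 genes that all 3 tables share and 10690 genes in at least 1 of them. Dusp8 was not listed in any of the tables, so its RNA was not analysed here. Every gene in the tables had at least 50 reads in each of its libraries, so no further filter on low values was applied to the members. The cells were NIH3T3, an established line of mouse fibroblasts labelled as proliferating, grown in DMEM with 10% calf serum, penicillin and streptomycin. NT cells were nontreated, AS cells were exposed to 250 μM sodium arsenite for 1 h, and RC4 and RC8 cells had the same exposure followed by 4 h or 8 h of recovery in arsenite-free medium. Each condition has 1 library made from total RNA by QuantSeq FWD, a method that primes on the poly(A) tail and reads the RNA near its 3′ end. The design asks how the RNA of these genes, and the position of their cleavage and polyadenylation sites (PASs), differed during the stress and in the hours after it.

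MAP kinases (ERK, JNK and p38) are switched on when MAP kinase kinases phosphorylate a threonine and a tyrosine in their activation loop, and dual-specificity phosphatases remove both phosphates. Many of these phosphatases are themselves made in response to MAP kinase signalling and form a negative feedback loop. They differ in location and target, with inducible enzymes of the nucleus, ERK-selective enzymes of the cytoplasm, enzymes that prefer JNK and p38, and small atypical members without the domain that docks MAP kinases. Arsenite is an oxidative and protein-damaging stress that is known to activate JNK and p38 strongly.

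The gene tables held 22.4 M to 23.0 M reads per library. Levels are given in RPM, the reads of a gene per 1000000 reads on all genes of the table. Since a QuantSeq read comes from the end of an RNA, levels were not divided by transcript length. With 1 library per condition there is no spread between cultures and no test, so a difference is described by its size and by a 95% interval that covers counting error only. No molecular identifiers are described for these libraries, so reads need not be independent molecules. The intervals count each read as independent and may therefore be too narrow. A gene is called here when its RPM was at or past 2-fold of that in NT. The 3 comparisons use the same NT library and so are not independent of one another. The median gene differed by −0.04 (log2) in AS, −0.30 at RC4 and 0.01 at RC8, and values relative to the median gene are given for calls that this scale adds or removes. Listed genes that it adds were named with their values seen. In bulk RNA, fewer cells with a transcript and less RNA per cell cannot be told apart. All 12 genes of a list of fibroblast markers were present, and 15 of 16 markers of other cell types were not listed.

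In AS, 1 of the 8 members was at least 2-fold higher than in NT, where 0.622% of 10452 genes were, and 0 were at least 2-fold lower, where 3.22% of genes were. In RC4, 3 members were at least 2-fold higher against 3.69% of 10081 genes, and 0 were lower against 13.4% of genes. In RC8, 2 members were at least 2-fold higher against 2.97% of 10441 genes, and 1 was lower against 3.53%. The members were chosen with earlier results known, so these counts beside the shares of all genes are a description only. The called gene of AS was Dusp1. Dusp4, Dusp5 and Dusp10 were called in RC4, Dusp4 and Dusp5 remained past the fold in RC8, and Dusp1 was the member called lower in RC8. The median log2 change of the members was 0.04 in AS, 0.75 at RC4 and 0.22 at RC8. Over all genes of RC4, 372 were called higher and 1347 lower, which became 643 and 643 relative to the median gene, and 6.38% of genes were then called higher. On that scale Dusp16 joined the members called higher in RC4, making 4, and Dusp4 left those of RC8, where 2.95% of genes were called higher.

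**Figure D1:**
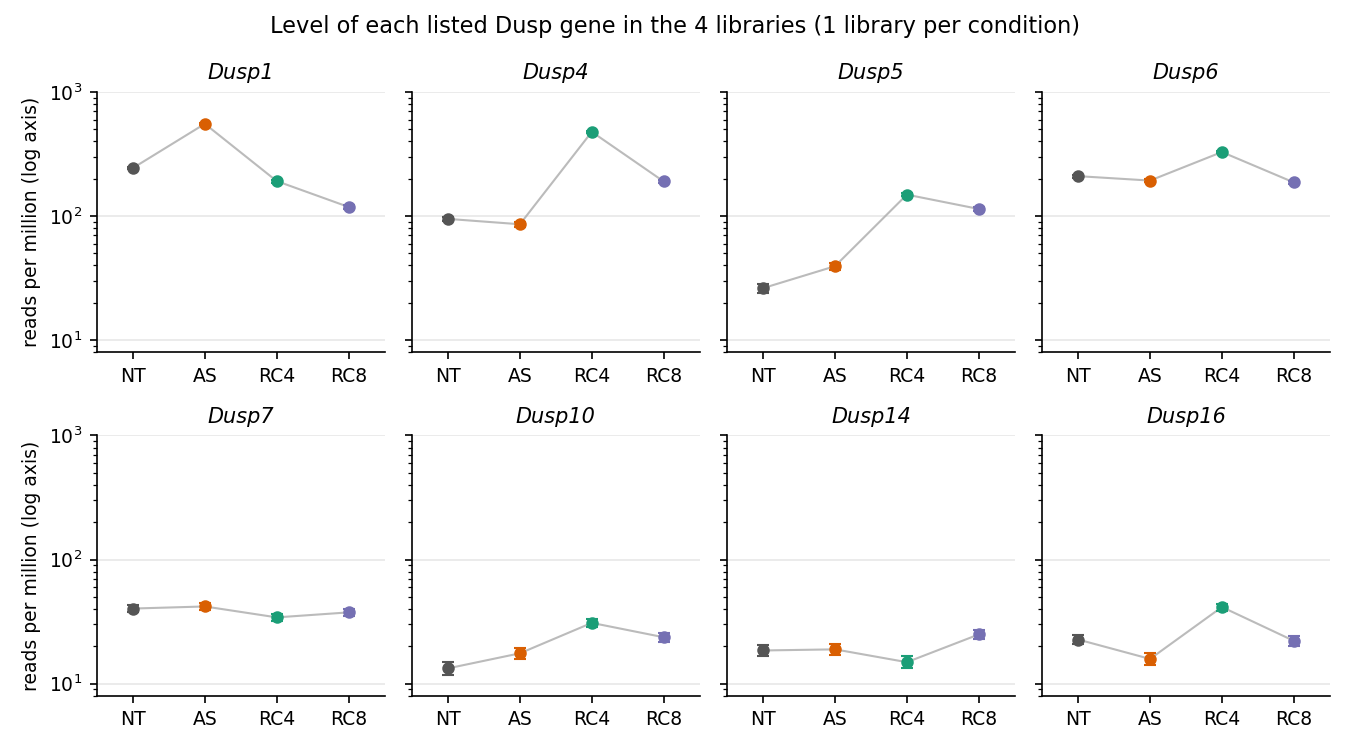
Level of each listed Dusp gene (vertical log axis, RPM) in NT, AS, RC4 and RC8, with 1 library per condition and bars for the 95% Poisson interval of the read number. Dusp1 is highest in AS, Dusp4, Dusp5, Dusp6, Dusp10 and Dusp16 are highest in RC4, Dusp14 is highest in RC8, and Dusp7 stays between 34.2 and 41.9.

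Dusp1, Dusp4 and Dusp5 encode the inducible phosphatases of the nucleus. Dusp1, which acts on p38, JNK and ERK, is a textbook immediate early gene. Its level was 244 RPM in NT, 554 in AS, 191 at RC4 and 118 at RC8. It was thus highest straight after arsenite and lowest at 8 h of recovery, and none of the 4 intervals overlapped. The level in AS was 2.27-fold that in NT (log2 1.18, interval 1.14 to 1.23), and 42 genes of 10452 had a higher log2 change. In RC8 it was 2.06-fold below NT (log2 −1.04, −1.11 to −0.98). The difference in RC4 (log2 −0.35) came to −0.05 relative to the median gene, so at 4 h Dusp1 stood near the median gene. Set across tables, RC8 was 4.68-fold below AS.

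The only PAS of Dusp1 lay at chr17:26642566 on the minus strand of mm9, in the 3′-most exon and 659 nt after the stop codon. That 3′UTR held 4 copies of the AU-rich pentamer ATTTA, a sequence that many short-lived mRNAs carry. Of 7470 genes with a 3′UTR measured in the same way and not matched in size, 7096 had fewer copies for their length. The first pair overlaps, as shown by the 30 nt that begin 95 nt after the stop codon (chr17:26643101-26643130, minus strand, mm9, pentamers in capitals).
Dusp1 AU-rich stretch: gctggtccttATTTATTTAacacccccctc
Promoter windows were searched for short motifs, and that of Dusp1 is shown because it was the member called in AS. A cyclic AMP response element (CRE, TGACGTCA) lay 143 to 136 nt before the start of the gene, in the window chr17:26508597-26508626 on the minus strand of GRCm38.p6 (RefSeq, CRE in capitals).
Dusp1 promoter: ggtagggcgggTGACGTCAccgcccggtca
This palindrome was present in 1.79% of 32851 promoter windows of 300 nt, which reach from 250 nt before the start to 50 nt after it.

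Dusp4, which acts on ERK and JNK, had 94.9 RPM in NT, 85.9 in AS, 478 at RC4 and 190 at RC8. It was close to its NT level at the end of the exposure and highest at 4 h of recovery, and again no 2 intervals overlapped. The log2 change was −0.14 in AS (−0.23 to −0.05), 2.33 at RC4 (2.26 to 2.40) and 1.00 at RC8 (0.93 to 1.08). The RC4 level was 5.02-fold that in NT, and 36 genes had a higher log2 change. In RC8 Dusp4 sat on the threshold itself, at 2.003-fold by total reads and at log2 0.997 relative to the median gene.

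Dusp5, a nuclear phosphatase with ERK as its substrate, had 26.3 RPM in NT, 39.4 in AS, 149 at RC4 and 114 at RC8. It was lowest in NT and the member with the widest range, 5.67-fold between its lowest and highest library. The change was log2 0.59 in AS (0.44 to 0.74), 5.65-fold at RC4 (log2 interval 2.37 to 2.63) and log2 2.12 at RC8 (1.99 to 2.25). In RC4, 27 genes had a higher log2 change, and in RC8, 12 did. Between 4 h and 8 h Dusp4 was 2.51-fold lower and Dusp5 1.30-fold lower, both set across tables.

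Dusp5 had 1 PAS, at chr19:53616878 on the plus strand (mm9), 1066 nt after the stop codon. The promoter window of Dusp5 held a pair of adjacent CArG boxes, the binding sequence of serum response factor, between 82 and 63 nt before the start. They are shown in capitals in the window chr19:53529058-53529087, plus strand, GRCm38.p6 (RefSeq).
Dusp5 promoter: aatacCCATATTTGGCCTTATATGGgcact
A CArG box was found in 1.63% of promoter windows. Of the 9 listed genes, 8 had a window, and both strands were searched for these motifs and for TGANTCA (AP-1), TGATGNAA (ATF4), GAANNTTC (heat shock factor), TGACNNNGC (NRF2) and TATAAA. Further matches were GAANNTTC in Dusp16, TGACNNNGC in Dusp1 and Dusp5, and the CRE in Dusp8. These motifs were present in 7.86%, 12.4% and 1.79% of windows, in that order. TGANTCA was in 7.81%, TGATGNAA in 3.97% and TATAAA in 13.6% of windows, and in none of those of the members. A match is a description of the letters and was not tied to any binding.

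**Figure D2:**
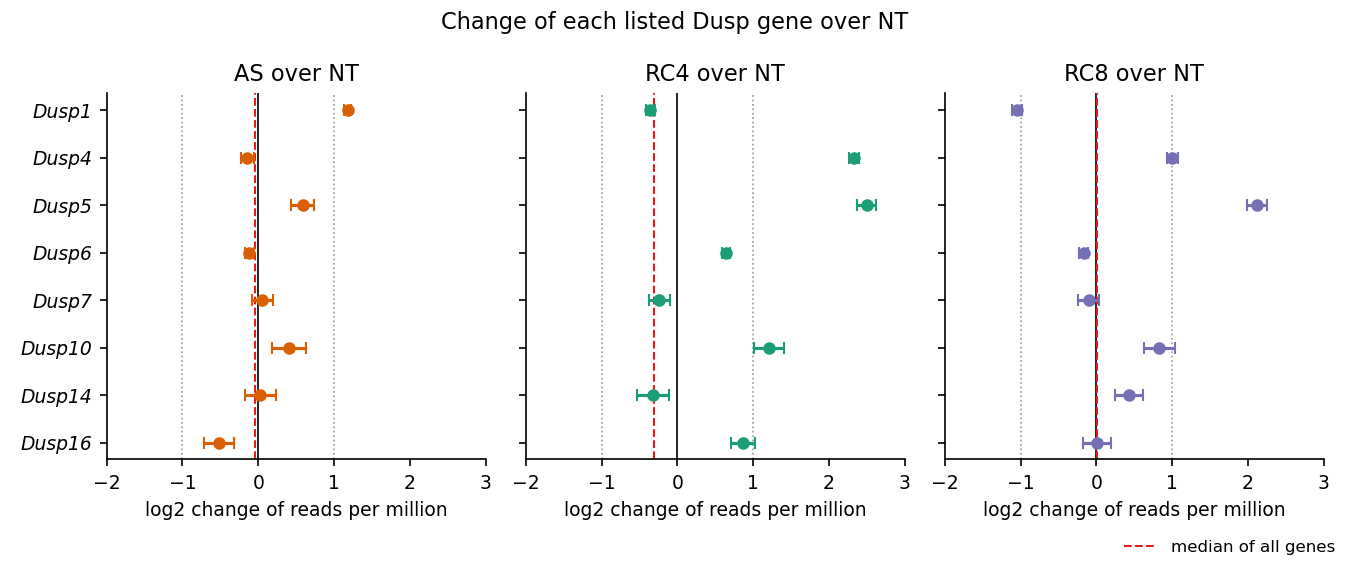
Log2 change of the RPM of each listed Dusp gene over NT (horizontal axis) in AS, RC4 and RC8, with bars for the 95% counting interval. The dotted lines mark 2-fold, and the dashed red line marks the median of all genes, which is −0.04, −0.30 and 0.01. Dusp4 and Dusp5 lie beyond log2 2 in RC4, and Dusp1 lies past the right dotted line in AS and past the left one in RC8.

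Dusp6 and Dusp7 encode the ERK-selective phosphatases of the cytoplasm. Dusp6, a feedback target of ERK signalling, had 210 RPM in NT, 193 in AS, 328 at RC4 and 187 at RC8. Its levels in AS and RC8 overlapped, NT lay above them, and RC4 stood above the rest at 1.56-fold the NT level (log2 0.64, 0.59 to 0.70). Relative to the median gene the change in RC4 was 0.95, short of 2-fold. Dusp7 had 40.3 RPM in NT, 41.9 in AS, 34.2 at RC4 and 37.5 at RC8. It had the narrowest range of the 8 members, 1.22-fold, and every pair of neighbours in its order of levels had overlapping intervals, though the extremes, AS and RC4, did not overlap. Its change in RC4 was −0.24 by total reads and 0.06 relative to the median gene, so its sign there turns with the scale.

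Dusp10 and Dusp16 encode phosphatases that prefer JNK and p38. Dusp10 had 13.3 RPM in NT, 17.6 in AS, 30.9 at RC4 and 23.7 at RC8. It was the member with the lowest level in NT, and its 4 levels did not overlap. The change was log2 0.40 in AS (0.18 to 0.62), 1.21 at RC4 (1.02 to 1.41) and 0.83 at RC8 (0.63 to 1.04). Dusp10 thus had the same order of libraries as Dusp5, NT lowest and RC4 highest, with smaller differences.

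Dusp16, selective for JNK, had 22.7 RPM in NT, 15.8 in AS, 41.5 at RC4 and 22.1 at RC8. It was lowest straight after arsenite, highest at 4 h, and back at a level that overlapped NT at 8 h. The change was log2 −0.52 in AS (−0.72 to −0.32), 0.87 at RC4 (0.71 to 1.03) and 0.01 at RC8 (−0.17 to 0.19). From AS to RC4 the level differed 2.62-fold, set across tables. Its AU-rich pentamers numbered 3, and 51.7% of the 7470 genes measured had fewer copies for their length. A pair of these pentamers overlaps in the 30 nt that start 1842 nt after the stop codon (chr6:134665979-134666008, minus strand, mm9, pentamers in capitals).
Dusp16 AU-rich stretch: gtaagatgtaATTTATTTAagaatgaaaac

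Dusp14 encodes a small atypical phosphatase. It had 18.5 RPM in NT, 18.9 in AS, 14.9 at RC4 and 24.9 at RC8. NT and AS overlapped, RC4 was lowest and RC8 was highest, which no other member showed. The change in RC4, log2 −0.32 (−0.53 to −0.11), was −0.01 relative to the median gene, and that in RC8 was 0.43 (0.24 to 0.61).

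Summed over the 8 members, the level was 670 RPM in NT, 967 in AS, 1267 at RC4 and 718 at RC8. Dusp1 supplied 36.4% of these reads in NT and 57.3% in AS, against 15.1% at RC4 and 16.5% at RC8. Dusp4 supplied the largest share in RC4 (37.7%) and RC8 (26.5%), and Dusp5 went from 3.92% of the sum in NT to 15.9% in RC8. The sum in RC8 was near that in NT, while the genes that made it up differed.

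**Figure D3:**
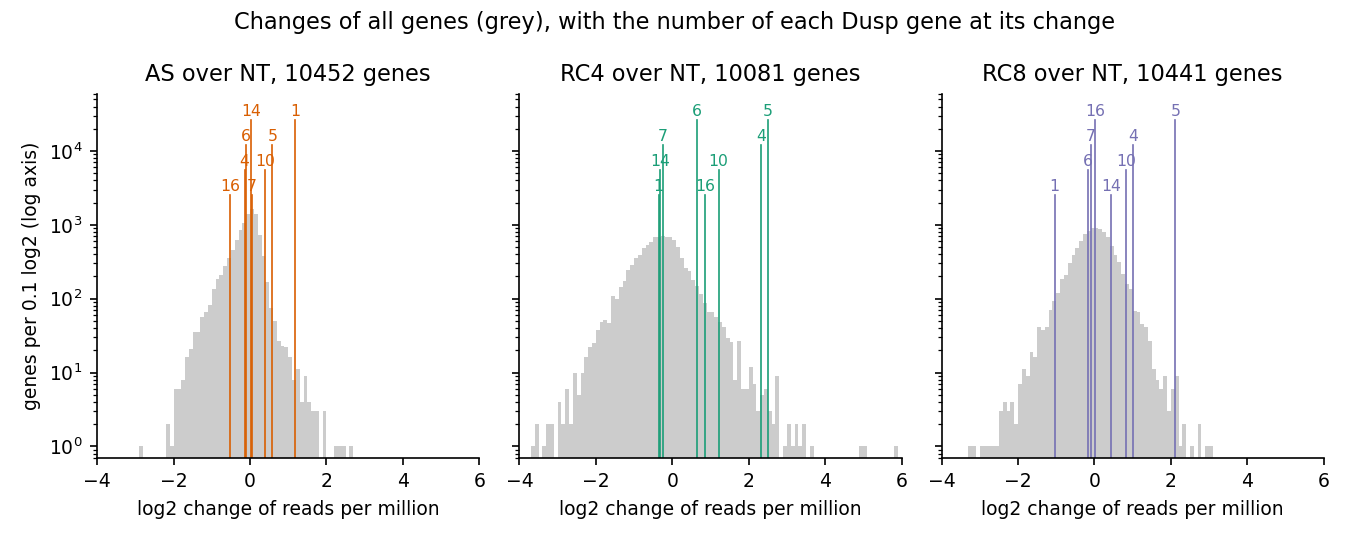
Distribution of the log2 change over NT of all genes in each table (grey bars of width 0.1, vertical log axis in genes), with a coloured line and the gene's number at the change of each listed Dusp gene. Dusp1 stands in the upper tail of AS and the lower tail of RC8, and Dusp4 and Dusp5 stand in the upper tail of RC4.

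Only Dusp4, Dusp7 and Dusp10 had more than 1 PAS, and all PASs of the 8 members lay in the 3′-most exon class of the tables. The share of a gene's reads at each PAS was taken as deposited. Among genes with more than 1 PAS, a PAS moved by at least 10 percentage points in 15.3% of 5287 genes in AS, 29.1% of 5343 in RC4 and 27% of 5357 in RC8. Of the 3 members, 0 did so in AS, 1 at RC4 and 1 at RC8, each time Dusp10.

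The PASs of Dusp10 common to all 3 tables lay at chr1:185898753 and chr1:185899400 on the plus strand (mm9), 351 and 998 nt after the stop codon. The 30 nt that end at the proximal one are shown with the polyadenylation hexamer AATAAA in capitals.
Dusp10 proximal PAS, chr1:185898724-185898753: tttaagccaacaAATAAAaatattataaaa
The distal PAS has none of 12 common hexamers within 40 nt upstream. Of the 30 nt that end at it, 24 are A, as are 12 of the 20 nt after it. Whether priming on the genomic stretch added reads was not tested. The proximal PAS took 69.9% of Dusp10 reads in NT (Wilson interval 64.5 to 74.8), 83.4% at 4 h (80.5 to 86.0) and 87.4% at 8 h (84.3 to 89.9). It therefore gained 13.5 points in RC4 and 17.5 points in RC8, with intervals apart from that of NT. The table of AS lists an added PAS at chr1:185899516, and there the proximal share was 69.0% in NT and 69.2% in AS. The added PAS took 10.5% of Dusp10 reads in NT and 14.8% in AS. For the same NT library, chr1:185899400 took 20.5% in the comparison of AS and 30.1% in those of RC4 and RC8. The intervals above cover read counting and not the assignment of reads to PASs.

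The proximal PAS of Dusp10 had 9.31 RPM in NT, 25.8 in RC4 and 20.7 by RC8. At the distal PAS there were 4.01 in NT, 5.13 in RC4 and 2.98 by RC8. The higher level of Dusp10 in recovery was thus mostly at the proximal PAS, 2.77-fold in RC4 against 1.28-fold at the distal one. REDu, the log2 ratio of distal over proximal reads in the treated library relative to NT, was −1.11 in RC4 (counting error 0.23) and −1.58 in RC8 (counting error 0.26). The median REDu over genes with a score was −0.37 in RC4 and −0.14 in RC8. In AS the REDu of Dusp10 compares the PASs at chr1:185899400 and chr1:185899516, which are 116 nt apart, and was 0.85 (counting error 0.41), with 0.49 for the first against the last PAS. No copy of ATTTA lay before either of the 2 PASs common to the tables. Between them and the PAS listed only where AS is compared with NT there were 3.

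**Figure D4:**
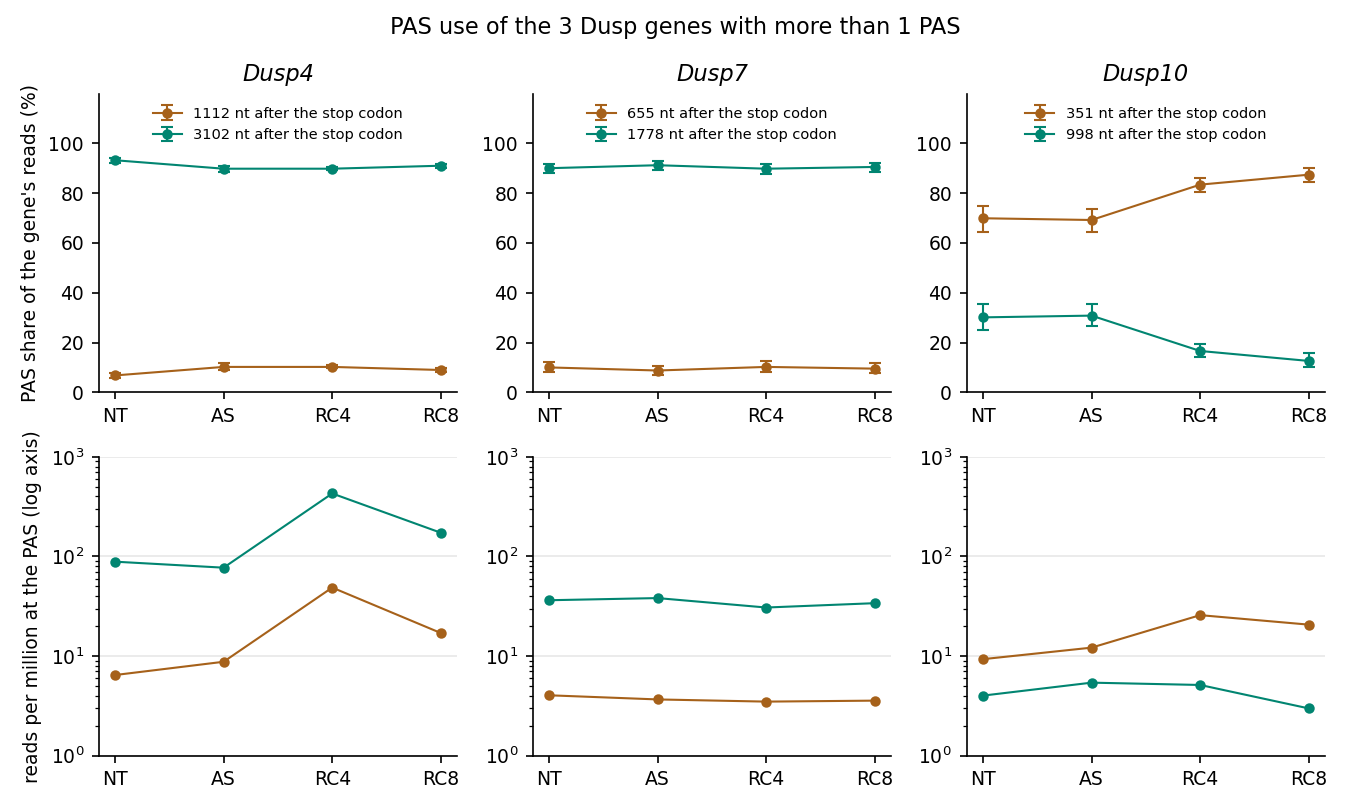
PAS use of Dusp4, Dusp7 and Dusp10 in the 4 libraries. The upper panels give the share of the gene's reads at the proximal (brown) and distal (green) PAS in percent, with bars for the 95% Wilson interval, and the lower panels give the RPM at each on a log axis. For Dusp10 in AS, the distal points add the PAS listed for that table alone. The proximal share of Dusp10 is 69.9% in NT and 87.4% in RC8, while the distal PAS leads in Dusp4 and Dusp7 in every library.

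Dusp4 was cleaved at chr8:35882949 and chr8:35884939 on the plus strand, 1112 and 3102 nt after the stop codon. The proximal site lies 1 nt past the annotated end of the last exon in GENCODE vM1, and the distal one 1991 nt past it.
Dusp4 proximal PAS, chr8:35882920-35882949: ttttgAATAAAaagatacgcatatgcctga
Dusp4 distal PAS, chr8:35884910-35884939: taggatgtacattttttttagaagagtcaa
The hexamer is in the proximal window, yet the distal PAS, with none of the 12 hexamers within 40 nt, took most reads. The proximal share was 6.78% in NT (5.79 to 7.92), 10.2% in AS (8.93 to 11.6), 10.2% at RC4 (9.65 to 10.8) and 8.96% at RC8 (8.15 to 9.84). It was thus somewhat higher in the 3 treated libraries, by 3.42, 3.42 and 2.18 points. Both PASs carried the higher level of RC4, at 7.55-fold for the proximal and 4.84-fold for the distal PAS. REDu was −0.64 in AS (counting error 0.16), −0.64 at RC4 (0.13) and −0.44 at RC8 (0.15). The median REDu over genes with a score was −0.23, −0.37 and −0.14 in that order. Of those genes, 67.5% in AS, 68.6% at RC4 and 55.7% at RC8 had a REDu below 0.

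Dusp7 was cleaved at chr9:106276932 and chr9:106278055 on the plus strand, 655 and 1778 nt after the stop codon. The proximal share was 10.0% in NT, 8.76% in AS, 10.2% at RC4 and 9.51% at RC8, and all 4 intervals overlapped. REDu lay between −0.03 and 0.21 with counting errors of 0.23, so for Dusp7 neither the level nor the PAS differed by much between libraries.

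The other members had a single PAS. Those of Dusp6 (chr10:98730119, plus strand) and Dusp16 (chr6:134665491, minus strand) lay 1166 and 2359 nt after the stop codon and had AATAAA within 40 nt upstream. That of Dusp14 (chr11:83861582, minus strand), 537 nt after the stop codon, had none of the 12 hexamers, nor had those of Dusp1 and Dusp5. In the 20 nt after the PAS there were 10 A for Dusp1 and 13 A for Dusp5, and again priming on the genomic stretch was not tested. Over all genes, the main PAS had AATAAA in 51.1% and no hexamer in 22.3%, against 50% and 50% of the members. No other annotated gene lay within 500 nt of a member's PAS. ATTTA was present before the main PAS in 62.5% of members and 62.4% of genes. Dusp1 held 4 copies, Dusp4 and Dusp16 held 3 each, and Dusp5 and Dusp6 held 1 each.

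**Figure D5:**
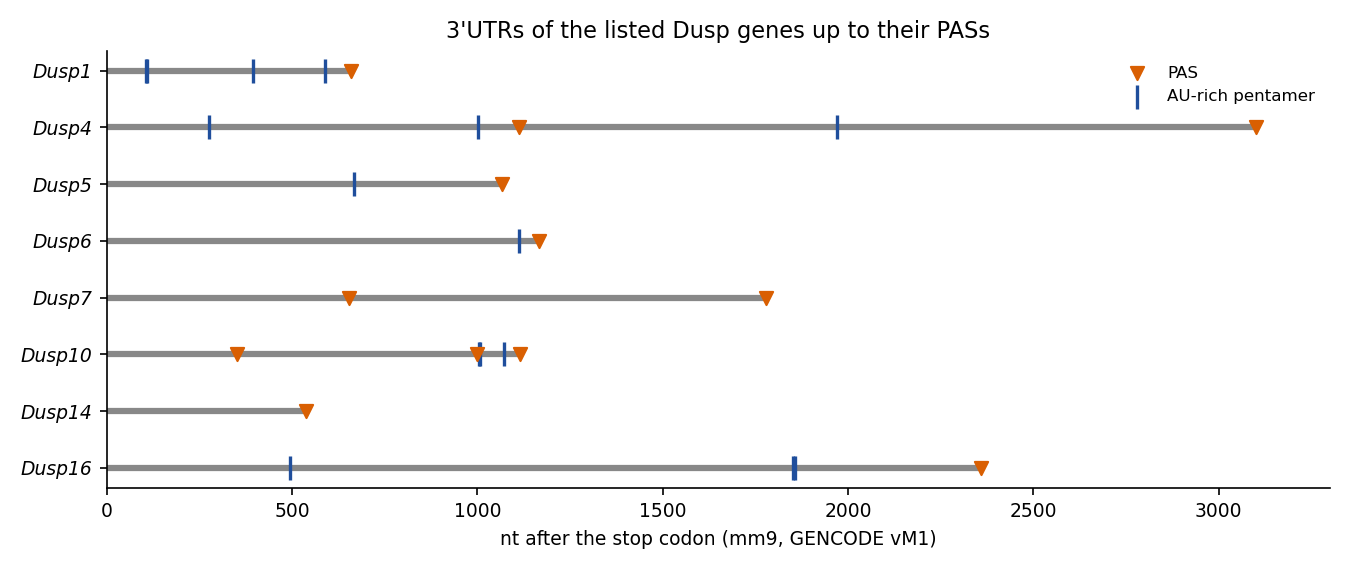
3′UTRs of the 8 listed Dusp genes, drawn to scale in nt after the stop codon (horizontal axis, mm9 with GENCODE vM1). Triangles mark PASs and blue ticks mark the AU-rich pentamer. Dusp1 has 4 pentamers within 659 nt, and the ones of Dusp10 lie after its PAS at 998 nt.

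For the 3 members with the widest ranges, the genes with the most similar set of 3 log2 changes were sought among 9391 genes, by Euclidean distance. The gene nearest to Dusp1 was Btg2, an antiproliferative immediate early gene, at a distance of 0.13 with changes of 1.29 in AS, −0.34 at RC4 and −0.98 at RC8. Taf1d, 5430416N02Rik, Ccnl1 and Insig1 followed at 0.47 to 0.59. The gene nearest to Dusp4 was the cytokine gene Il11, at 0.24, with changes of −0.19, 2.47 and 0.82. Txnrd1, Gab2, Fgf2 and Gm12551 followed at 0.26 to 0.47. Dusp5 had no neighbour closer than 0.43, and its nearest genes were Tnnt2, Aig1, Tubb2a, Cryab and Ctla2b. These 5 had lower values in AS than Dusp5, at 0.08 to 0.35 against 0.59.

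Of 19 other dual-specificity phosphatases, 9 were in the tables, and 0 were called in AS, 1 was called higher and 2 lower in RC4, and 1 was called higher in RC8. Dusp19 was 27.6 RPM in NT and 13.5 in RC4, and the slingshot phosphatase Ssh1, which acts on cofilin, was 23.5 and 11.7. Relative to the median gene these 2 differences were −0.73 and −0.71, short of 2-fold, while Dusp3 passed the fold, so that the list in RC4 then had 2 higher and 0 lower. Ssh2 was 597 RPM in NT, 779 in AS, 3118 at RC4 and 1473 at RC8, but its reads were all listed at a PAS in an intron and need not come from full-length Ssh2 mRNA. Dusp9, a cytoplasmic ERK phosphatase, was 16.2 RPM in NT, 15.6 in AS, 23.8 at RC4 and 27.1 at RC8, and Dusp3 was 22.5, 23.1, 44.9 and 32.2. The change of Dusp3 in RC4 was log2 0.995, or 1.30 relative to the median gene.

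The kinases on which these phosphatases act were counted in the same way. Of 9 MAP kinases in the tables, 0 were called in AS and RC8, and 1 was called lower in RC4. It was Mapk14, which encodes p38 alpha, with 38.3 RPM in NT and 18.6 in RC4 (log2 −1.04, or −0.74 relative to the median gene). None of 7 MAP kinase kinases was called in any comparison. Of the MAP kinase kinase kinases, 1 of 13 was called higher and 1 lower in AS, 1 of 12 higher and 3 lower in RC4, and 1 of 13 higher in RC8. Map3k14 (log2 1.02) and Map3k2 (−1.09) were those of AS. Taok3 (1.08), Taok2 (−1.83), Araf (−1.34) and Map3k10 (−1.20) were those of RC4, and Map3k13 (1.34) that of RC8. Relative to the median gene of RC4, Map3k10 no longer passed the fold.

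Among downstream and feedback genes, of 9 MAP kinase-activated kinases, 1 was called, Mknk1 in RC4 (log2 −1.01, or −0.70 relative to the median gene). On that scale Rps6ka2 was the one past the fold in RC4, and higher (log2 0.79 by total reads, 1.1 relative to the median gene). Rps6ka2 had under 200 reads in each library, with 75 in NT and 132 in RC4 (log2 interval by total reads 0.37 to 1.22). Of 7 further feedback inhibitors, 1 was called, Spred1, an inhibitor of Ras and ERK signalling, in AS (−1.16). Relative to the median gene Nf1, which encodes a Ras GTPase-activating protein, was also past the fold in RC4 and higher (log2 0.99 by total reads, 1.30 on that scale). Of 6 phosphatases of other families that act on MAP kinases, 0 were called in AS and RC4 and 1 was lower in RC8, Ptpn5 (log2 −1.06), which had under 200 reads in each library and is named outside the rule, with its values seen. In AS the list medians were −0.02, −0.55 and −0.13 in that order. For RC4 they were −0.27, 0.23 and 0.19, and for RC8 −0.09, 0.01 and −0.05.

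Immediate early genes, the class to which Dusp1 belongs, had 4 of 14 genes called higher in AS, with a list median of 0.77 against −0.04 for all genes. They were Egr1 (146 RPM in NT and 893 in AS, 6.11-fold), Ier2 (3.22-fold), Jun (168 and 515 RPM, 3.07-fold) and Klf2 (2.42-fold). Fos and Atf3 were not listed in the tables. In RC4, 2 of 13 were called higher, Maff (3.47-fold) and Egr1 (2.24-fold), and in RC8 0 of 13 were called. Relative to the median gene Klf6 was added as higher in AS (1.04) and RC4 (1.04), making 5 of 14 and 3 of 13. Jun was 189 RPM in RC4 and 151 in RC8, and Egr1 was 119 in RC8. Dusp1 and Jun were both highest in AS, and Dusp1 in RC8 was further below NT than Jun (log2 −0.15) or Egr1 (−0.29).

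Of 8 genes for factors that bind AU-rich elements, 1 was called higher in AS, Zfp36, which promotes decay of such mRNAs, with 9.83 RPM in NT and 32.9 in AS. In RC4, 1 of the 8 was called lower, Zfp36l2 (log2 −1.09, or −0.79 relative to the median gene), also with under 200 reads and named in the same way, and in RC8 0 were called. Of 10 arsenite-inducible genes, 5 were called higher in AS, 9 at RC4 and 7 at RC8. The heat shock gene Hspa1b went from 42.3 RPM in NT to 218 in AS, 2369 at RC4 and 90.4 at RC8, and the heme oxygenase gene Hmox1 from 27.6 to 57.8, 888 and 101. The near-identical copy Hspa1a is not listed, and whether any of its reads were counted at Hspa1b was not tested. Hspa1b and Hmox1 were highest in RC4, as were Dusp4, Dusp5, Dusp6, Dusp10 and Dusp16. The share of all genes with their highest level in RC4 was not taken, and a link between these genes was not tested. Of the 12 fibroblast markers, 0 were called in AS, 3 were lower at RC4 (Pdgfrb, Col3a1 and Pdgfra) and 4 at RC8 (those 3 and Col1a2). Relative to the median gene Pdgfra was at −0.99 in RC4, short of the fold. Of the 12, 8 were below NT in AS, 11 at RC4 and 11 at RC8, with list medians of −0.08, −0.59 and −0.82. Of all genes, 43.7% were above NT in AS, 29.2% at RC4 and 50.6% at RC8. Relative to the median gene the list medians were −0.04, −0.29 and −0.83. S100a4 alone had 10272 RPM in NT, 10867 in AS, 8089 at RC4 and 5715 at RC8. The other 11 markers summed to 5040, 5013, 4023 and 3485 RPM, and the part of this difference in the Dusp values was not tested. Tubb3, the one listed marker of another cell type, had 2.79 RPM in NT, 2.32 in AS, 11.0 at RC4 and 15.8 at RC8.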

How the data were processed

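RNA of NIH3T3 cells was measured by QuantSeq FWD with 1 library in each of 4 conditions. QuantSeq REV libraries are not analysed here. The authors mapped reads to mm9 with STAR (2.5.2a, per the labels' processing notes), ran MAAPER and deposited unnormalized read counts per gene, in 2 columns per library, and the fraction of a gene's reads at each PAS. The meaning of the 2 columns is not given in the sources used here. They were added and not treated as replicates. Deposited P values, RLD and RED columns hold the authors' own comparisons and were not used. There were 0 unused columns of sample values.

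Reads were scaled to the table's total on genes (22.4 M to 23.0 M). Ratios were given exact conditional binomial intervals, levels exact Poisson intervals and PAS shares Wilson intervals, all at 95% (Python 3.11.15, scipy 1.17.1). With 1 library per condition no test was made. Libraries were also simulated with Poisson counts and a known change. The ratio intervals covered it in 95.2% of 10081 genes in RC4, 95.4% of 10452 in AS and 95.5% of 10441 in RC8. These draws follow the model that the intervals assume. They check the calculation, and not duplicate reads or spread between cultures. REDu was computed from deposited fractions for the 2 PASs with the largest change. Reference sequence was mm9 with GENCODE vM1, and RefSeq promoters of GRCm38.p6. Every member was named, along with other dual-specificity phosphatases and, from each further list, up to 4 called genes per comparison and direction with at least 200 reads in the higher library. Jun, Egr1, Hmox1 and Hspa1b were always named. The members and lists were chosen with earlier results of these data known. A gene and a sequence are not reported here.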

Additional observations from a re-analysis of the deposited data

Results flagged for a closer look

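In Dusp1, Dusp4, Dusp6 and Dusp16 the change over NT had opposite signs in a pair of comparisons. The counting intervals lay on either side of 0 under both total and median-gene scaling. The share of all genes that meet this was not taken. For Dusp4 and Dusp6 the change in AS was small, at log2 −0.10 and −0.08 relative to the median gene. The log2 change of Dusp1 in RC8 minus that in AS was −2.23. That of Dusp4 was 2.47 for RC4 minus AS and 1.15 for RC8 minus AS. For Dusp6 the difference was 0.76 for RC4 minus AS and −0.81 for RC8 minus RC4, and for Dusp16 it was 1.39 for RC4 minus AS. The comparisons share the NT library, each rests on 1 library per condition, and the differences were not tested.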

How the results depend on the processing

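With 1 library per condition, intervals cover counting alone, and culture differences cannot be told apart from the treatment. No paired analysis was possible because no test was made and each group has 1 sample. Scaling to the median gene moved the members' median in RC4 from 0.75 to 1.06 and reduced the members called higher in RC8 from 2 to 1. The second count column alone also left 1 there, Dusp4 being the gene on the threshold. Lowering the fold to 1.5 gave 2 members called higher for AS, 5 for RC4 and 3 for RC8. Shares of all genes called higher were taken at 2-fold only, so these counts have no background to be set beside. The other scalings (mapped read numbers of the study, totals over genes in all 3 tables), the first count column, the minimum of 200 reads, and, for PASs, merging below 100 nt, 5 points and 200 reads kept every count within 1.5 times, and no called value of a member changed sign. Signs of small changes turned for Dusp7 in RC4 (median gene) and AS (first column), Dusp14 in AS and Dusp16 in RC8 (second column).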
